A study of Mus musculus with 12 samples.

Results

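Within the WT and HxD libraries of adult mouse cortex, 4 libraries (numbers 1 and 3 of each genotype) were set against the other 4 (numbers 2 and 4). Without overlap, 5.60% of tested genes were higher in libraries 1 and 3 and 5.56% were lower. These 8 of the 12 libraries are described here, with the 4 KO libraries beside them. The sets were chosen by their expression values in these same libraries, so every difference between them is a description, with no test. The study sequenced poly(A)-selected RNA of whole cortex from mice of 3 Tet1 genotypes, 4 libraries each: WT, KO, and HxD, an allele that the labels name without describing. No age beyond adult, sex, treatment or Cre driver is given for any group, and no label ties each library to its own mouse; the p-values then reflect only the spread among these samples. The question was which cortical area, layer or neighbouring tissue parts the sets.

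TET1 is an enzyme that oxidises 5-methylcytosine in DNA. The cortex is a sheet of layered excitatory neurons whose areas differ in gene expression. It borders the claustrum, piriform cortex and amygdala on its ventrolateral side and the hippocampus on its medial side, it lies over white matter and striatum, and the meninges cover it. Each of these tissues has marker transcripts that the cortex holds little of. In bulk RNA, fewer cells of a type and less RNA per cell cannot be told apart.

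Libraries 1 and 3 had totals of 8310783 to 9306434 estimated counts, libraries 2 and 4 had 7767787 to 10915574, and the KO libraries had 5791642 to 9535409, so totals of the sets overlapped. The cortical markers Slc17a7, the vesicular glutamate transporter of cortical excitatory neurons, and Neurod2 were present in all 12 libraries, with at least 1802 and 115 CPM (counts scaled to a common library size, computed here from the deposited estimated counts). The Y-linked Ddx3y had 474 to 987 counts in each library and Xist 0 to 8. The correlation of log2 CPM was 0.876 to 0.901 between libraries of the same set and other genotype, and 0.877 to 0.910 between libraries of the same genotype and different sets. After genotype was removed, the first principal component of the 8 libraries carried 22.1% of the variance. On it, libraries 1 and 3 lay from -6.36 (WT 1) to -59.3 (HxD 3). Libraries 2 and 4 lay from 11.1 (WT 2) to 73.5 (HxD 2), so HxD 2 and HxD 3 were farthest out.

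Of 12134 genes tested both in the 8 libraries and in all 12, 679 had no overlap between the sets and were higher in libraries 1 and 3 (5.60% of genes), and 675 had none and were lower (5.56%). A fit of the set difference with genotype as covariate put 45 of 12151 genes past an adjusted p of 0.05 (0.370%), which is given as background because the same values chose the sets. Leaving out any one of the 8 libraries gave 1 to 8 calls: 8 without WT 1, 7 without WT 4, 2 without WT 2 or HxD 1, and 1 without WT 3, HxD 2, HxD 3 or HxD 4. At the limit of no overlap, the 5 genes just inside had gaps of 0.000119 to 0.00041 log2 units (Nxpe3 to Eif1ad) and the 5 just outside had gaps of -6.56e-06 to -0.0006 (G3bp1 to 9130024F11Rik). The 40 genes described next have the widest gaps, 20 in each direction, and were drawn from the 544 higher and 588 lower genes without a library listed at 0 and with a limited range within a set.

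**Figure D1:**
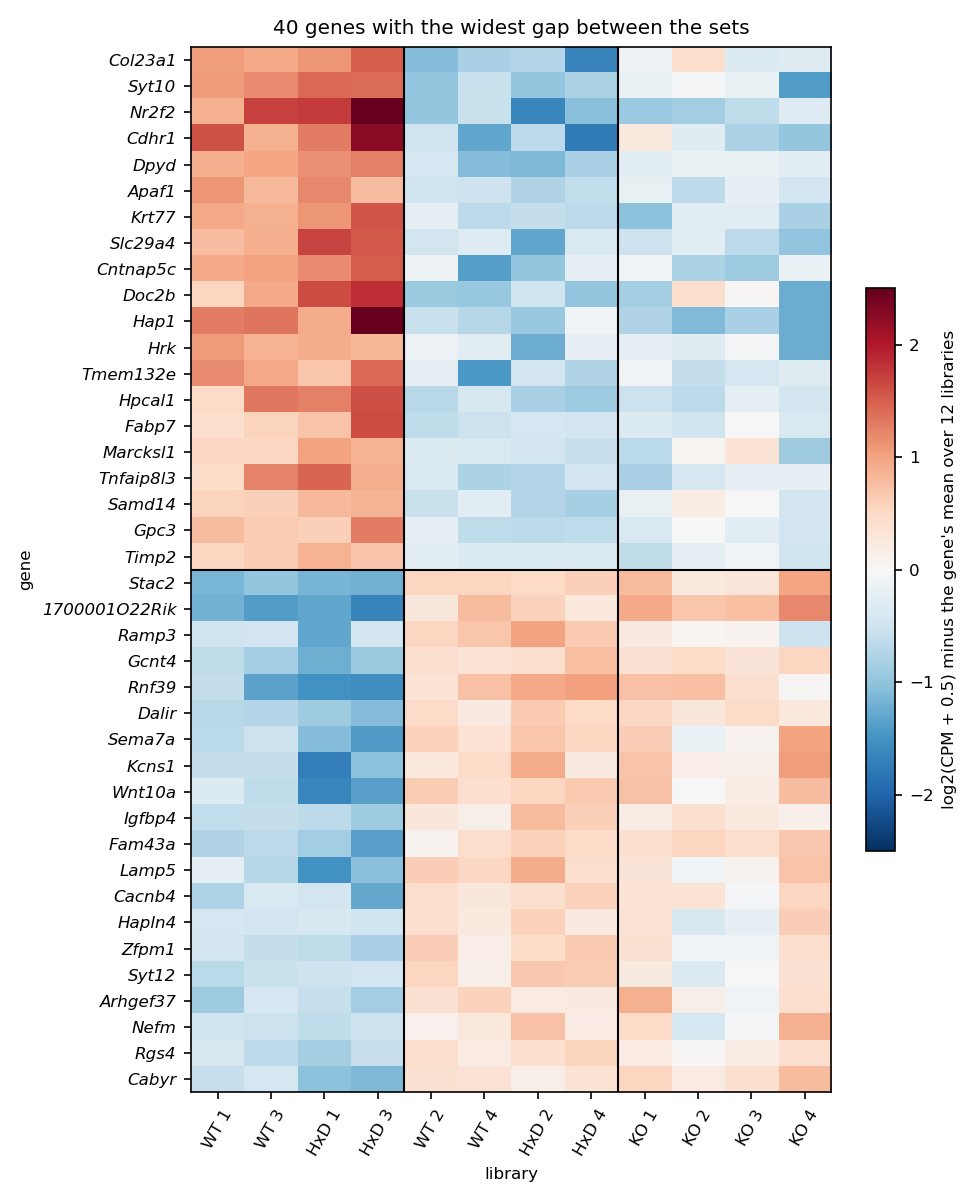
Each row is 1 of the 40 genes with the widest gap between the sets and each column 1 library; colour gives log2(CPM + 0.5) minus the gene's mean over 12 libraries, cut at 2.5. The upper 20 genes are high in libraries 1 and 3 and the lower 20 in libraries 2 and 4, which the choice of genes fixes, and the 4 KO columns on the right resemble the middle block for most rows.

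Among the 20 genes higher in libraries 1 and 3, Nr2f2 had the largest difference. It encodes COUP-TFII, a nuclear receptor of the amygdala and of interneurons from the caudal ganglionic eminence. Nr2f2 measured 43.3, 77.0, 79.2 and 144.7 CPM in WT 1, WT 3, HxD 1 and HxD 3, against 11.7, 15.6, 7.14 and 11.02 CPM in WT 2, WT 4, HxD 2 and HxD 4. All 4 values of the first set lay above all 4 of the second, with a log2 difference of 2.87 (SE 0.44), and the KO libraries had 12.0 to 18.4 CPM, at the level of libraries 2 and 4. Hap1, huntingtin-associated protein 1, which is abundant in the hypothalamus and amygdala, had 145, 151, 114 and 380 CPM in WT 1, WT 3, HxD 1 and HxD 3. In libraries 2 and 4 it had 40.4, 36.2, 30.6 and 55.8 CPM, and 24.9 to 35.3 CPM in KO. HxD 3 was the highest library for both genes, and without it the log2 differences were 2.54 for Nr2f2 and 1.73 for Hap1.

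Other genes of this group were the collagen Col23a1 (34.7 ± 6.30 CPM in libraries 1 and 3, 7.21 ± 2.01 in 2 and 4, SD, n = 4 each), the synaptotagmin Syt10 (16.8 ± 2.01 against 3.55 ± 0.572 CPM) and the calcium sensor Doc2b (111 ± 44.0 against 24.6 ± 4.27 CPM). Apaf1, the scaffold of the apoptosome, had 39.3 ± 5.86 against 12.9 ± 1.04 CPM, and Hrk, a BH3-only cell death gene, 166 ± 12.0 against 65.5 ± 19.5 CPM. Timp2, an inhibitor of metalloproteinases, was the most abundant of the 20, with 605, 648, 761 and 682 CPM in libraries 1 and 3 of WT and then HxD and 348, 326, 325 and 328 CPM in libraries 2 and 4. Its spread within each set was small beside the difference. Log2 differences of the 20 genes ran from 1.02 (Timp2) to 2.87 (Nr2f2). Fabp7, the brain fatty acid-binding protein of radial glia and astrocytes, had 63.3, 68.8, 76.1 and 146 CPM against 29.5, 31.7, 34.1 and 33.0 CPM, with the highest value again in HxD 3.

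Nr2f2 is a nuclear receptor, and the promoters of genes high in the same libraries were read for AGGTCA, the core hexamer that many nuclear receptors bind. Among the 20 higher genes, 17 had a promoter in the RefSeq table of GRCm38.p6, and 2 of them, Col23a1 and Fabp7, held AGGTCA or its reverse complement TGACCT in the 250 bases before the start. These promoters are printed because they are the matches among the named genes, with the motif in capitals, from chr11:51289670-51289919 and chr10:57784673-57784922, both on the plus strand.
Col23a1: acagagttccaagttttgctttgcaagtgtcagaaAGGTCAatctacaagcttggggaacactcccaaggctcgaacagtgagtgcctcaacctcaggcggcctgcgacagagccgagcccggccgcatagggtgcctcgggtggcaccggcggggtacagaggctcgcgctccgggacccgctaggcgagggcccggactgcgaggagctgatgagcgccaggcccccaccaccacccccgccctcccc
Fabp7: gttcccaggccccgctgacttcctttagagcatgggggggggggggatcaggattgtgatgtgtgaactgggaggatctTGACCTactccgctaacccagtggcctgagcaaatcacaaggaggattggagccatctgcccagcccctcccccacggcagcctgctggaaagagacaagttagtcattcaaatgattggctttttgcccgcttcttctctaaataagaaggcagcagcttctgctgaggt
The same letters stood in 8.54% of 527 promoters of genes higher in libraries 1 and 3 without overlap, in 10% of 518 of those lower there, in 10.1% of 9579 of tested genes and in 13.8% of all 27025 promoters of the table. None of the 12 promoters found for the 20 lower genes held it, and a match is a description of these letters, not of a bound site.

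The 20 genes lower in libraries 1 and 3 included neuronal channel subunits, signalling regulators and a neurofilament. Stac2, an adaptor of voltage-gated calcium channels, had the widest gap of this direction and very little spread: 99.7, 112, 98.3 and 96.4 CPM in WT 1, WT 3, HxD 1 and HxD 3, against 320.4, 320.3, 312 and 333 CPM in WT 2, WT 4, HxD 2 and HxD 4. The log2 difference was -1.66 (SE 0.06), and KO had 262 to 435 CPM, with all 4 libraries on the side of libraries 2 and 4. Lamp5, a membrane protein of upper-layer neurons and of a class of interneurons, had 227, 163, 94.1 and 130 CPM against 411, 385, 509 and 364 CPM. Sema7a, a membrane-anchored semaphorin, had 141 ± 37.3 against 382 ± 35.1 CPM (SD, n = 4 each), the calcium channel subunit Cacnb4 202 ± 52.6 against 437 ± 36.7 CPM, and Rgs4, a regulator of G protein signalling, 344 ± 42.4 against 700 ± 71.5 CPM. The silent potassium channel subunit Kcns1 had 18.0 ± 6.0 against 48.9 ± 11.9 CPM. Log2 differences of the 20 genes ran from -0.84 (Hapln4) to -2.14 (Rnf39).

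**Figure D2:**
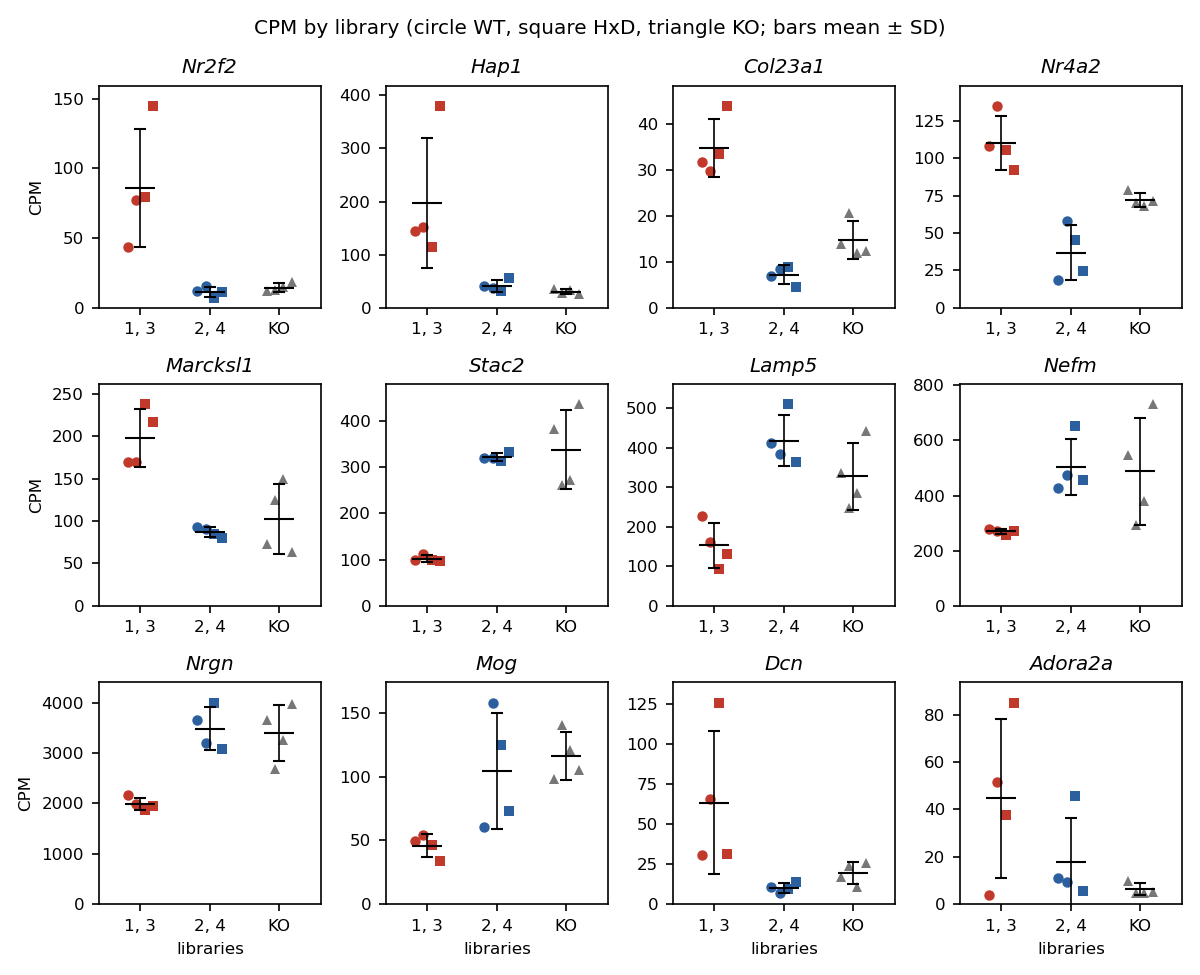
CPM of 12 genes in each library (circles WT, squares HxD, triangles KO), in libraries 1 and 3, libraries 2 and 4 and KO, with the mean and SD of 4 libraries. Stac2, Nefm and Nrgn are low in libraries 1 and 3 with little spread, and Adora2a, a striatal gene, overlaps between the sets, with 3.99 to 85.1 CPM in libraries 1 and 3.

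Marker lists of areas, layers, neighbouring tissues and cell types were scored in each library, as a description with no test. A library's list score is the median over a list's tested members of log2 CPM after subtracting the gene's mean across the 12. Of 35 lists, 28 had scores that overlapped between the sets and 7 did not. The 7 were 4 of the 32 lists written first, and all 3 that were added after the set difference had been seen. The 32 were also written with earlier results of these data known, so they are not independent of these libraries. Nothing is therefore read from the 4 of 32 beside the 3 added lists. All tested genes had a median log2 difference of 0.00. A gene of low counts could pass the count filter through the set where it is high, so the direction of such list members was fixed. Runs without a library filtered the genes again with a looser limit, so tested members can differ between runs.

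**Figure D3:**
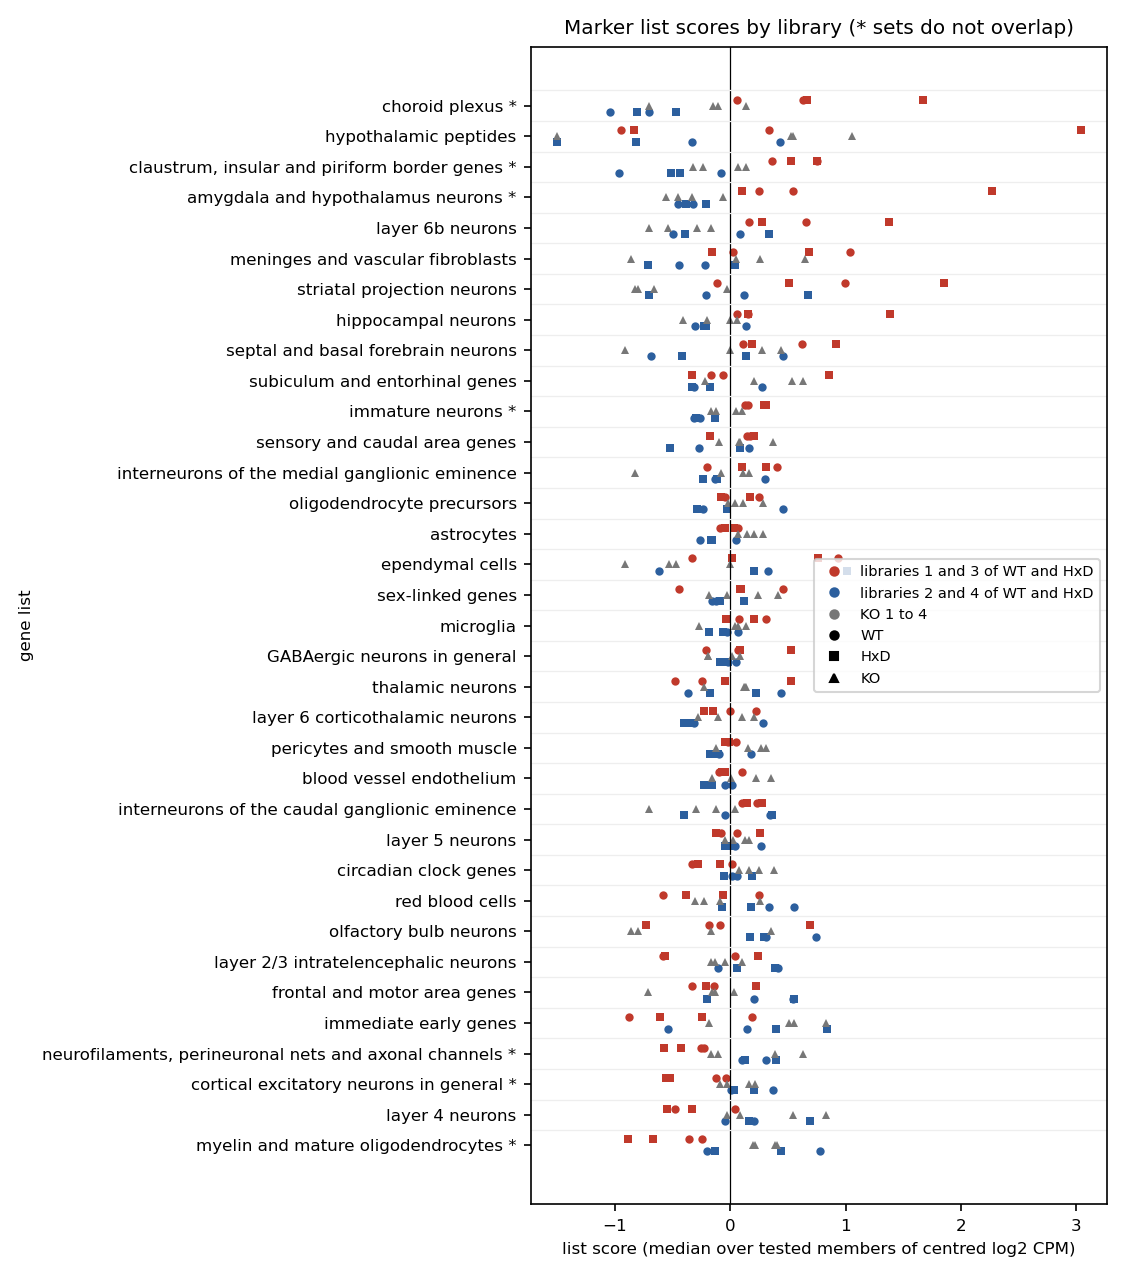
Scores of 35 marker lists (rows, ordered by the median set difference of their members) in 12 libraries, with colour for set or KO and shape for genotype; an asterisk marks lists whose sets do not overlap. Choroid plexus, the claustrum, insular and piriform list and the amygdala and hypothalamus list lie to the right in libraries 1 and 3, and myelin lies to the left.

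The list of claustrum, insular and piriform border genes had a median log2 difference of 1.59. Of its 5 tested members, 5 lay above 0 (10 genes in the list). The list holds Nr2f2, which is among the genes chosen above for their gap. Nr4a2, an orphan nuclear receptor of the claustrum and layer 6b, had 108, 135, 106 and 92.3 CPM in WT 1, WT 3, HxD 1 and HxD 3, against 18.4, 58.3, 45.2 and 24.7 CPM in libraries 2 and 4. The lateral cortical marker Lxn, a carboxypeptidase inhibitor, had 62.6 to 88.4 CPM against 39.2 to 59.8 CPM, so the sets were close but apart. Synpr, a synaptic vesicle protein, overlapped (log2 difference 0.28, SE 0.28), and Gnb4, Oprk1 and Car3 had at most 12 counts in any library. The summed CPM of the list was 313 to 411 in libraries 1 and 3, 154 to 221 in libraries 2 and 4 and 202 to 280 in KO. The median moved to 1.13 without WT 1 and 2.21 without WT 4.

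The added list of amygdala and hypothalamus neurons had a median of 1.29 with 11 of 12 tested members above 0 (19 genes in the list). Members nearly absent from libraries 2 and 4 could pass the count filter only through libraries 1 and 3, which fixes their direction. The median was 0.65 with a stricter filter on low counts, and 2.25 to 2.44 without any one of WT 1 to WT 4 or HxD 1, 2.03 without HxD 2, 1.61 without HxD 4 and 1.01 without HxD 3. Its largest difference was in Ecel1, with 0 in every one of libraries 2 and 4 and at most 4.69 CPM in libraries 1 and 3, so no fold is given. Dlk1, an imprinted Notch-family ligand, had 3.31, 21.1, 18.0 and 43.7 CPM in WT 1, WT 3, HxD 1 and HxD 3, against 0.665 and 1.07 CPM in WT 2 and HxD 4, and was listed at 0 in WT 4 and HxD 2. Magel2, another imprinted gene of the hypothalamus, had 2.51 to 26.4 CPM against 0.683 to 1.95 CPM. Among hypothalamic peptides, Hcrt, Pmch, Oxt, Agrp and Gal had at most 4 counts in any library, while Trh, thyrotropin-releasing hormone, had 34.2 CPM in HxD 3, 5.87 CPM in WT 3 and at most 2.02 CPM in the other 10 libraries, and Esr1 and Cyp19a1 were listed at 0 in all 12. The summed CPM of the list was 475 to 1272 in libraries 1 and 3 and 311 to 387 in libraries 2 and 4, and HxD 3 was the highest library. The list holds Hap1, which is among the 40 genes chosen for their gap. Hap1 made up 380 of the 1272 CPM in HxD 3 and 145 of the 528 CPM in WT 1.

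Tissue that borders the cortex gave mixed values. The choroid plexus list, marking the epithelium that makes cerebrospinal fluid, had a median log2 difference of 1.80 and 6 of 6 tested members above 0, and its scores did not overlap. Ttr, the transthyretin of that epithelium, did overlap: WT 1, WT 3, HxD 1 and HxD 3 had 25.5, 1.1, 246 and 2.23 CPM, and WT 2, WT 4, HxD 2 and HxD 4 had 0.949, 2.32, 31.3 and 1.07 CPM. The high Ttr values were thus in WT 1, HxD 1 and HxD 2, of both sets, and the choroid plexus regulator Otx2 was listed at 0 in all 12 libraries. The list's summed CPM was 10.5 to 277 in libraries 1 and 3, 5.37 to 36.0 in libraries 2 and 4 and 5.43 to 15.1 in KO, and its median was 2.37 without WT 4.

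The list of meninges and vascular fibroblasts had a median of 0.89 with 13 of 14 members above 0, and overlapping scores. Dcn, the fibroblast proteoglycan decorin, had 30.7, 65.5, 126 and 31.3 CPM in WT 1, WT 3, HxD 1 and HxD 3 against 10.5, 6.65, 9.48 and 14.05 CPM in libraries 2 and 4. Of the 14, 3 were higher without overlap, beside 5.60% of all genes: Dcn, Igf2 and the collagen Col1a1 (8.19 to 17.6 against 3.77 to 7.32 CPM). Lum, Mgp and Foxc1 of the same list overlapped, with log2 differences of 0.34, 0.27 and 0.32. The summed CPM was 201 to 293 in libraries 1 and 3, 75.2 to 159 in libraries 2 and 4 and 87.8 to 236.5 in KO. Its median was 0.56 without WT 1 and 0.57 without HxD 3. The part of these tissues in the set difference was not tested.

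Striatal genes overlapped between the sets. The list of striatal projection neurons had a median of 0.86 with 18 of 22 members above 0, yet the set scores overlapped. Of the 22, 1 member, the adenylyl cyclase Adcy5 (451 to 765 against 362 to 430 CPM), had no overlap, beside 5.60% of all genes. Adora2a, the adenosine receptor of one class of striatal projection neuron, had 3.99, 51.6, 37.7 and 85.1 CPM in WT 1, WT 3, HxD 1 and HxD 3, and 11.01, 9.17, 45.4 and 5.66 CPM in WT 2, WT 4, HxD 2 and HxD 4. WT 1 was therefore lower than all of libraries 2 and 4, and HxD 2 higher than WT 1 and HxD 1. Drd3 and Six3 were listed at 0 in all libraries. The median was 0.43 without WT 3, 0.47 without HxD 3, 0.56 without HxD 4 and 1.38 without HxD 2.

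The list of hippocampal neurons had a median of 0.85, and 0.30 without HxD 1 and 0.55 without HxD 2, and 1.30 without WT 1. Fibcd1, a marker of CA1 pyramidal neurons, had 200 CPM in HxD 1 and 11.9 to 27.9 CPM in the other 11 libraries. Over members with 1 RefSeq transcript the list's median was -0.34. Rgs14, a signalling regulator of CA2 neurons that cortex also expresses, had 116 to 144 CPM in libraries 1 and 3 against 67.1 to 85.3 CPM. The subiculum and entorhinal list likewise had a median of 0.46, and -0.44 without HxD 1. The thalamic list had a median of 0.05, and of 0.52 without WT 3 and 0.67 without WT 4. The hypothalamic peptide list had 2 tested members, Trh and Pomc, both above 0 and overlapping, and its summed CPM was 37.6 in HxD 3 and at most 5.87 in the other 11 libraries.

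Scores of all 5 layer lists overlapped between the sets. In layer 4 the list's median was -0.82, 7 of 8 members lay below 0 and scores overlapped; the median was -0.26 without WT 4, -0.44 without HxD 4 and -0.49 without WT 1. Its secreted Wnt agonist Rspo1 had 10.03, 5.87, 3.12 and 10.1 CPM in libraries 1 and 3 against 9.78, 31.8, 48.6 and 18.0 CPM in libraries 2 and 4, so WT 2 lay inside the other set. Layer 2/3 genes had a median of -0.40 (-0.19 without WT 2 and -0.24 without WT 3), where Lamp5 was lower and the calcium-binding Calb1 (251 to 321 against 170 to 228 CPM) higher in libraries 1 and 3 without overlap. Layer 5 genes had a median of -0.15 (0.05 without WT 1) and layer 6 corticothalamic genes one of 0.05 (0.33 without WT 4). In layer 5, Col23a1 and the thyrotropin-releasing hormone receptor Trhr were higher without overlap and Pou3f1, a POU transcription factor, lower. Layer 6b genes had a median of 1.01 over 4 tested members (0.53 without HxD 3), and Moxd1, a monooxygenase-like protein, had 15.0 to 32.1 CPM against 7.79 to 10.1 CPM.

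The area lists held differences of both signs. Of genes that mark frontal and motor areas, Crym, a thyroid hormone-binding crystallin, was higher in libraries 1 and 3 (133 to 374 against 63.9 to 119 CPM), and the LIM protein Lmo4 was lower (154 to 231 against 245 to 320 CPM). Cbln2, a synaptic organiser, was listed at 0 in all 4 of libraries 1 and 3 and had 102.9, 36.8, 41.7 and 58.4 CPM in WT 2, WT 4, HxD 2 and HxD 4. It was also listed at 0 in KO 1, KO 2 and KO 3 but not KO 4, and since other common genes of these files are listed at 0, no fold is given. Of sensory and caudal area genes, the transcription factor Bhlhe22 was higher (124 to 184 against 61.7 to 81.5 CPM), the ephrin Efna5 was lower (23.9 to 42.5 against 42.9 to 62.3 CPM) and Nr2f1 overlapped. Scores of both these lists overlapped between the sets, as did those of the subiculum and entorhinal list, while the claustrum, insular and piriform list was the area list whose scores did not.

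List scores of cortical excitatory neurons in general and of myelin were lower in libraries 1 and 3 without overlap. Cortical excitatory neurons in general had a median of -0.60 with 8 of 9 members below 0. Of the 9, 2 were lower without overlap, beside 5.56% of all genes. The scores were close at the limit, with -0.041 in WT 1 and 0.006 in WT 4. Nrgn, the calmodulin-binding neurogranin of forebrain neurons, had 2162, 1984, 1871 and 1943 CPM against 3645, 3198, 3998 and 3078 CPM, a log2 difference of -0.81 (SE 0.10). Tbr1, a transcription factor of deep-layer neurons, had 130 to 201 against 224 to 259 CPM. The vesicular glutamate transporter Slc17a7, in contrast, had 2091 to 2818 against 2160 to 3211 CPM and overlapped. The summed CPM of the list was 4596 to 5719 against 6221 to 7851.

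The added list of neurofilaments, perineuronal nets and axonal channels had a median of -0.58. All 14 of 14 tested members lay below 0 and 8 had no overlap, beside 5.56% of all genes. The list was written after the set difference was seen and holds Nefm and Hapln4, chosen above for their gap. Nothing is therefore read from its share beside that of all genes. The neurofilament Nefm had 280, 271, 256 and 272 CPM in libraries 1 and 3 and 427, 476, 652 and 455 CPM in libraries 2 and 4. Hapln4, a link protein of perineuronal nets, had 128 to 137 against 214 to 271 CPM. The list of interneurons from the medial ganglionic eminence had a median of 0.28, with 5 of 7 members above 0 and overlapping scores. Its 1 member of 7 without overlap was lower, beside 5.56% of all genes. This was Pvalb, the calcium-binding protein of fast-spiking interneurons that carry such nets. Pvalb had 52.2, 73.0, 36.2 and 18.6 CPM against 96.3, 175, 170 and 90.2 CPM. Sst, of another interneuron class in that list, overlapped, with 348 to 498 against 366 to 420 CPM. Interneurons of the caudal ganglionic eminence had a list median of -0.10, with 4 of 8 members above 0 and overlapping scores.

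Myelin and mature oligodendrocyte genes had a median of -0.87, with 30 of 30 tested members below 0 and 7 without overlap, beside 5.56% of all genes lower without overlap. Mog, a glycoprotein of the outer myelin surface, had 49.1, 54.5, 46.2 and 33.7 CPM in WT 1, WT 3, HxD 1 and HxD 3, against 60.7, 158, 125 and 72.9 CPM in WT 2, WT 4, HxD 2 and HxD 4. Libraries WT 2 and HxD 4 lay close to the first set and WT 4 and HxD 2 far above it. The KO libraries had 98.3 to 140 CPM of Mog. Summed CPM of the list was 2309 to 3354, against 3357 to 7339 in libraries 2 and 4 and 5048 to 5740 in KO.

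Astrocytes, microglia, endothelium and pericytes differed less. Medians were 0.23 for astrocytes, 0.15 for microglia, 0.00 for endothelium and 0.00 for pericytes, all with overlapping scores. Of 20 tested astrocyte genes, 3 were higher without overlap, beside 5.60% of all genes. Oligodendrocyte precursors had 0.23, and -0.13 without HxD 1. The added list of immature neurons had a median of 0.36, and its scores did not overlap between the sets. Marcksl1, a substrate of protein kinase C, had 169, 170, 237 and 216 CPM against 93.2, 90.6, 84.8 and 79.4 CPM. Sox11 had 42.5 to 67.0 against 19.5 to 28.3 CPM. Dcx of the same list, a microtubule protein of migrating neurons, overlapped. Its median was 0.71 without HxD 2. Immediate early genes, which report recent neuronal activity, had a median of -0.57 with 22 of 27 below 0 and overlapping scores, and of -0.35 without HxD 1 and -0.29 without HxD 4. The clock genes had a median of -0.17, with Hlf, a clock-controlled transcription factor, at 175 to 286 against 345 to 429 CPM, and -0.42 without HxD 2.

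The 40 genes were of the same sign in WT and in HxD, which the choice of genes fixes, and 38 of them had the larger difference in HxD. HxD 2 and HxD 3 were also the libraries farthest out on the first principal component. The same share over all genes was not computed, so nothing is read from the 38. Across all genes the WT and HxD set differences had a correlation of 0.08, over genes that share libraries' depth and are not independent replicates.

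**Figure D4:**
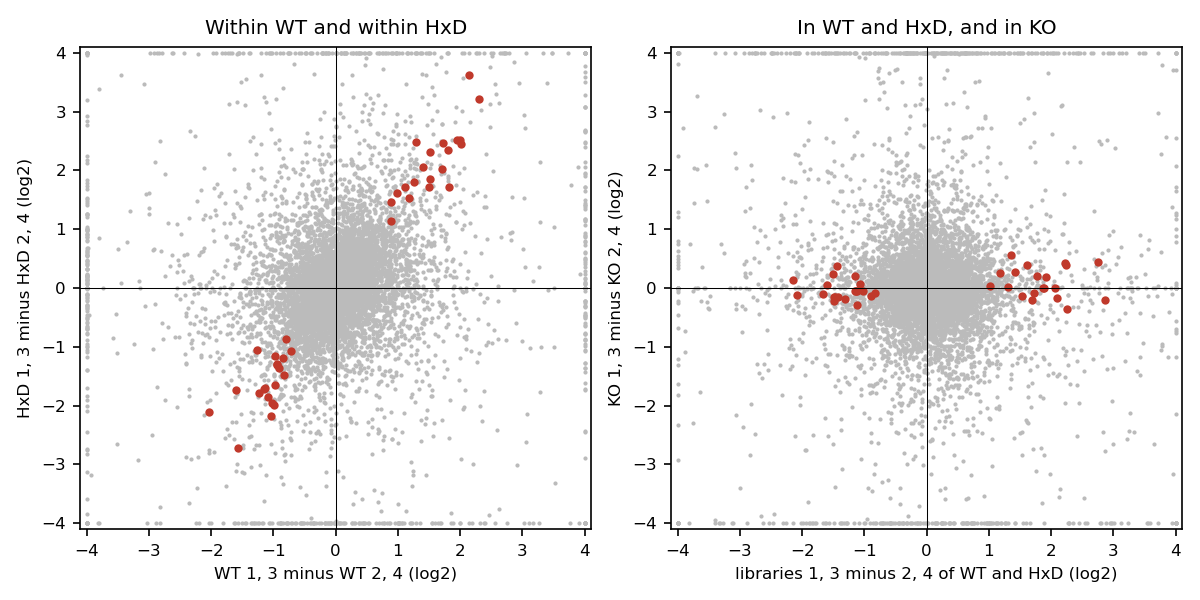
Log2 differences of all genes (grey) and the 40 named genes (red): left, libraries 1 and 3 minus 2 and 4 in HxD against WT; right, the same split of KO against the set difference; values beyond 4 are drawn at the edge. The red points lie along the diagonal on the left, which their choice fixes, and near 0 on the vertical axis on the right.

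The KO libraries were not used to choose the sets, so the same numbers could be tested there. KO 1 and 3 against KO 2 and 4 gave 3 of 12380 genes past an adjusted p of 0.05 (0.0242%) in edgeR's quasi-likelihood test with Benjamini-Hochberg adjustment, and 291 at an unadjusted p below 0.05. The 3 were Impa1, Nup93 and Zfp959, whose counts step between libraries: Nup93, a nucleoporin, had 0, 99, 0 and 119 counts in KO 1 to 4, and Zfp959 had 36, 0, 66 and 0. None of the 679 higher and 675 lower genes was called there by edgeR, with 19 and 13 at an unadjusted p below 0.05. By limma-voom 0 genes were called over all genes, so no member was, with 13 and 14 at an unadjusted p below 0.05. DESeq2 called 5 and 4 of them, beside 100 over all genes. All of the 40 genes had an adjusted p of 1 in edgeR and the lowest unadjusted p was 0.0894 (Apaf1). Of the 679, 53.3% had the same sign in KO and of the 675, 47.4%, beside 49.6% of all genes. The correlation across genes was -0.05. A p that misses the threshold does not show that the KO libraries were alike. Leaving out 1 library gave 4 to 46 calls: 46 without KO 2, 34 without KO 3, 22 without KO 4, 21 without KO 1, 7 without HxD 1 or HxD 3, and 5 without any one of WT 1 to WT 4.

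**Figure D5:**
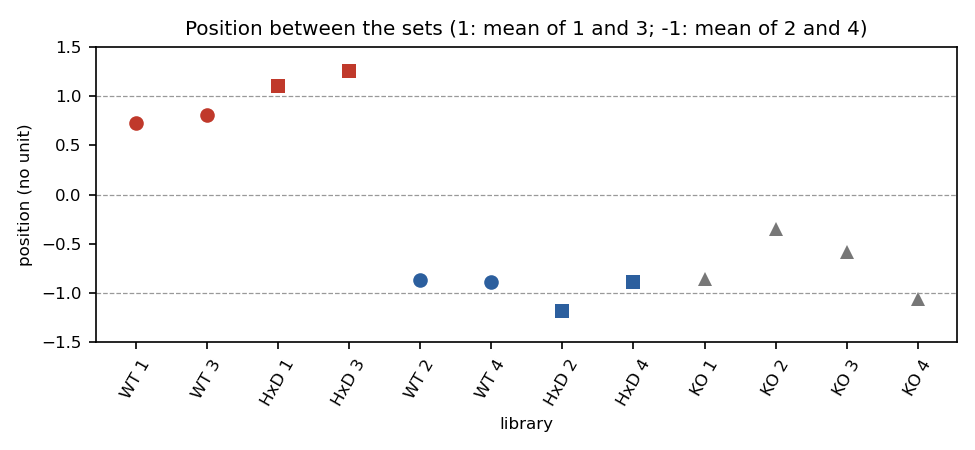
Position of each library between the sets (vertical axis, no unit), the median over the 544 higher and 588 lower genes of its distance from the midpoint, with 1 at the mean of libraries 1 and 3 and -1 at the mean of libraries 2 and 4. The 8 WT and HxD libraries lie apart by construction, and KO 1 to 4 lie at -0.85, -0.35, -0.58 and -1.06.

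By this median position, all 4 KO libraries lay on the side of libraries 2 and 4. Of the 679 genes higher in libraries 1 and 3, 300 (44.2%) had every KO library below the midpoint of the sets and 25 (3.68%) had every one above, beside 16.3% below and 16.8% above over all genes. Of the 675 lower genes, 255 (37.8%) had every KO library above the midpoint and 20 (2.96%) below. Among the 20 named higher genes 15 had all 4 KO libraries below, and among the 20 lower ones 15 had all 4 above. Without KO 2 the shares were 50.9% and 54.5%, and without WT 4 they were 31.4% and 28.3%.

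The sets are balanced over genotype, so HxD and WT could be compared with the set as a term. HxD minus WT gave 82 of 12151 genes past the threshold (0.675%), 53 higher and 29 lower, with 613 at an unadjusted p below 0.05. None of the 679 or the 675 was among the 82 in edgeR, with 11 and 28 at an unadjusted p below 0.05. Over all genes limma-voom called 68, of which 0 and 2 were members (23 and 26 unadjusted), and DESeq2 240, of which 0 and 9 were members (23 and 47 unadjusted). The members had to lie apart between sets pooled over genotype, a rule that genes with a large HxD minus WT difference tend to fail, so nothing is read from their few calls. KO minus WT, which shares the WT libraries with it, gave 26 of 12380 (0.210%), 8 higher and 18 lower, with 1324 at an unadjusted p below 0.05. It called 1 of the 679, as lower, and none of the 675 in edgeR, with 164 and 131 at an unadjusted p below 0.05. By limma-voom 0 and 0 were called (164 and 122 unadjusted), of 0 over all genes. DESeq2 called 491 over all genes, among them 64 lower of the 679 and 32 higher and 4 lower of the 675. The same rule on overlap used the WT libraries of this comparison. The KO minus WT count was 72 without KO 2, 58 without KO 3, 40 without WT 1, 16 without WT 2, 6 without HxD 4, 5 without HxD 2, and 4 without HxD 1 or HxD 3.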

How the data were processed

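Estimated counts were deposited as 1 table of genes by libraries, whole numbers with no scaling by the authors that the values show. Per the submitters' processing notes, the tools were STAR 2.7.1a, StringTie 2.2.3, Trim Galore 0.6.7, SAMtools 1.9 and FastQC, and the builds GRCm39 and mm10 are named without role; how reads were assigned to genes is not given in the sources used here. A value of 0 is reported as listed at 0. Of 21769 rows, 56 with a symbol on several rows (25 symbols) were left out.

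The set difference and HxD minus WT came from the same fit of the WT and HxD libraries (genotype and set as terms, 5 residual degrees of freedom). The other contrasts came from a fit of 12 libraries (6 cells of genotype by number, 6 residual degrees of freedom). Both were fitted with edgeR 4.0.16 in R 4.3.3 (robust quasi-likelihood fit, TMM, filterByExpr at a minimum count of 10), two-sided with Benjamini-Hochberg adjustment at 0.05. CPM used TMM factors of all 12 libraries, with 0.5 added for log2 values. The scripts were tested on simulated data. Named genes are the 20 per direction with the widest gap between the sets, with no library of the 8 listed at 0, 5 CPM or more on average in the higher set and at most a 4-fold range within a set, and from each list up to 4 members without overlap or the 2 most abundant. Some list members were named for their contrast with these after their values were seen. The members and lists were chosen with earlier results of these data known, and 3 lists and the midpoint measure were added after the set difference was seen. Alternatives were other scalings, filters, limma 3.58.1, DESeq2 1.42.0, a replicate block and each library left out. Some genes are not reported here.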

Additional observations from a re-analysis of the deposited data

Results flagged for a closer look

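Values were looked at in 222 groups of 4 libraries, and 7 held a library far from the other 3 of its genotype. Chance alone would do this in about 1 in 20 groups of unselected values. The groups include WT and HxD values of the 40 named genes, chosen for a gap between the sets, where such a library is unlikely. The 7 are therefore not compared with that rate. In list scores these were WT 2 for sensory and caudal area genes (-0.273, others 0.147 to 0.175), HxD 1 for subiculum and entorhinal genes (0.859, others -0.331 to -0.174), KO 4 for thalamic neurons (-0.228, others 0.116 to 0.141), WT 4 for myelin and mature oligodendrocytes (0.778, others -0.354 to -0.198), WT 3 for circadian clock genes (-0.332, others 0.0118 to 0.0604) and HxD 2 for sex-linked genes (-0.0914, others 0.0879 to 0.118). In log2 CPM, Syt10 was low in KO 4 (1.44, others 2.66 to 2.8).

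For 2 lists, libraries 1 and 3 lay on opposite sides of libraries 2 and 4 in different genotypes. The hippocampal score difference was 0.987 in HxD and -0.336 in KO, and the olfactory bulb score difference was -0.662 in WT and 0.928 in KO. These differences between genotypes were not tested.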

How the results depend on the processing

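Under the alternatives run, 95 of 138 counts, 480 of 525 list medians and 589 of 598 named-gene values stayed within the limits used (counts within 1.5 times, values within 1 SD of replicates). No named gene and no list without overlapping scores changed sign, which their choice makes likely. Other lists did change sign, such as subiculum and entorhinal genes (0.46, and -0.44 without HxD 1). Counts past the threshold differed between tools: DESeq2's Wald test gave 889 for the set difference, 100 for KO 1 and 3 against KO 2 and 4, 240 for HxD minus WT and 491 for KO minus WT, where edgeR gave 45, 3, 82 and 26, and limma-voom gave 0 for the KO split (275 unadjusted) and 0 for KO minus WT (1336 unadjusted). The set difference gave 3 without a filter and 3 in WT libraries alone. The KO split gave 6 with DESeq2 size factors, 6 with upper-quartile factors, 8 without a filter, 8 with a stricter filter and 0 in KO libraries alone (290 unadjusted). The cause was not tested.

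Library numbers did not pair the samples (same-number correlations of WT and HxD deviations from the group means were 0.014, -0.0113, 0.0812 and 0.0627). With a replicate block, HxD minus WT gave 47 calls (46 shared) and KO minus WT 5; without a set term KO minus WT gave 16.

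List medians moved as follows. Without a filter, claustrum, insular and piriform genes had 2.04, amygdala and hypothalamus neurons 2.36 and immature neurons 0.50; with a stricter filter, amygdala and hypothalamus neurons had 0.65, claustrum 1.13 and immature neurons 0.50; with limma-voom, thalamic neurons had 0.85. Over genes with 1 RefSeq transcript (an alternative chosen after seeing the data), medians were -0.83 for layer 5, -0.34 for hippocampal neurons, -1.47 for olfactory bulb, -0.083 for oligodendrocyte precursors, 0.13 for endothelium, -0.42 for clock genes, 2.53 for amygdala and hypothalamus, -0.76 for neurofilaments and 0.64 for immature neurons.

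Leaving out 1 library gave 1 to 8 calls for the set difference, 4 to 46 for the KO split and 4 to 72 for KO minus WT, and 893 to 1030 genes without overlap that were higher in libraries 1 and 3. It gave medians of 1.01 to 2.44 for amygdala and hypothalamus, 1.49 to 2.37 for choroid plexus, -0.42 to -0.15 for clock genes, 1.13 to 2.21 for claustrum, 0.30 to 1.30 for hippocampal neurons, 0.39 to 0.71 for immature neurons, -0.83 to -0.26 for layer 4, -0.28 to 0.048 for layer 5, 0.0049 to 0.33 for layer 6 corticothalamic neurons, -0.13 to 0.43 for oligodendrocyte precursors, -0.010 to 0.18 for pericytes, 0.56 to 1.36 for septal neurons, -0.16 to 0.34 for sex-linked genes, -0.44 to 0.68 for subiculum and -0.13 to 0.67 for thalamic neurons. Each run without a library filtered the genes again, and a cell with 1 library left made the filter looser. Genes of low counts could then join the lists, so these ranges mix the library left out with changed members. Fewer libraries also part without overlap more easily. Main values can therefore lie outside these ranges. Depth limits genes with few counts, such as most choroid plexus and hypothalamic markers.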
